A study of Schizosaccharomyces pombe with 36 samples.

Results

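The sites called weaker replication origins here were 400 bins of 300 bp in fission yeast (Schizosaccharomyces pombe). At each, the share of rightward-moving forks stepped up from left to right by a modest amount. The name rests on this step, and the bins were not compared with a list of known origins. They were chosen from measured values of the same study. In the 4 pairs of libraries with the RTS1 barrier off at the ChrII RTS1-rRFB locus, each library was scaled by its total, the pairs were added up per polymerase, and the profiles were smoothed over 7 bins. R, the share of rightward forks, was the mean of the Pol ε share on the forward (Watson) files and the Pol δ share on the reverse (Crick) files, and the jump was the mean R of the 10 bins to the right of a bin less that of the 10 bins to its left. A bin was kept where no other bin within 20 bins on either side had a larger jump. This left 751 bins among the 41912 bins of the 3 chromosomes, of which 692 had a jump above 0. With the kept bins ranked by jump, the members were the 400 that followed the first 250, down to rank 650. They stood beside the 250 strongest origins and the 101 kept bins past rank 650. The text gives some values for 4 bands of 100 members, from the first band (the highest ranks) to the last.

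A replication origin sends a pair of forks outwards, so the DNA to its right is copied mostly by rightward forks and the DNA to its left mostly by leftward ones. At each fork Pol ε extends the leading strand, while Pol α primes and Pol δ extends the lagging strand. In polymerase usage sequencing (Pu-seq), a mutant polymerase leaves ribonucleotides in the strand it made, alkali cuts the DNA there, and the cut sites are counted per strand. Fission yeast origins have no single consensus sequence, lie mostly between genes and are rich in A+T, which the AT-hook domain of the Orc4 subunit binds. Most fire in only some of the cells of a culture, and an origin that fires seldom leaves a small step in fork direction because forks from its neighbours usually pass through it first.

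The series comprised 36 Pu-seq libraries, in 16 pairs of a Pol δ (cdc6-L591G, or cdc6-L591M in 1 library) and a Pol ε (cdc20-M630F) strain and 4 single Pol α (pol1-L850F) libraries, from cultures in log phase. The study asked how forks arrested at RTS1, a directional barrier that needs the protein Rtf1, are restarted, and the genome outside the barrier was copied in the same cultures. The pairs used most here carried RTS1 next to ura4 at ChII-8535 with an array of 10 rDNA barrier copies (10xrDNA, the rRFB) beyond it. Their 4 backgrounds joined rnh201-d (rnh201::kan) or rnh201-RED with pku70+ or a label of pku70 disruption (Ku70::hyg in rnh201-RED, Ku70:leu2 in rnh201-d). In each background the barrier was off (rtf1::nat) or on (rtf1+). All of these strains were labelled h- and had the native RTS1 replaced (RTS1natural::Phleo). They carried ade6-704, leu1-32 and ura4-D18, and none had a normal rnh201, whose product removes ribonucleotides from DNA. The label smt0 stood in the rnh201-RED Pol δ and Pol ε strains of these backgrounds and smt0x in the rnh201-d, Ku70:leu2 ones, while the rnh201-d, pku70+ strains and the Pol α strains had neither, so these labels changed together with the alleles compared. The genotype label of the rnh201-d, pku70+, barrier-off pair names no array. The Pol α libraries were rnh201-d or rnh201-RED, barrier off or on, all labelled pku70+. The other 8 pairs had RTS1-rRFB with rtf1 driven from the adh1 promoter (adh-rtf1), tandem RTS1 with the array, an inverted second RTS1 with adh-rtf1 in rnh201-RED, RTS1 alone at ChI-4740, ChI-3220, ChI-5234 or ChII-8535, or the array alone at ChI-3220, and 7 of them were rnh201-d. The strains with RTS1 alone or the array alone list no change at the native RTS1. The ChI-4740 pair is titled as barrier on but its genotypes list rtf1::nat, and of the array pair only the Pol ε genotype does, while counts over rtf1 in these libraries, measured as in the next paragraph, were 1.03 and 1.01 (ChI-4740) and 0.837 and 0.685 (array) for Pol δ and Pol ε. The remaining pairs with RTS1 alone list no change of rtf1, and nor does the tandem pair, which carried smt0.

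Totals per library ran from 3304406 to 84420592 counts with a median of 13633601. In the 8 barrier-on RTS1-rRFB libraries they ran from 3304406 to 25064637, and the lowest count in the windows around any member was 238. Counts over rtf1, per bin relative to the median of the bins beside the gene, were 0.029 to 0.097 in 7 of the 8 barrier-off Pol δ and Pol ε libraries and 0.305 in the rnh201-d, pku70+, barrier-off Pol δ library, against 0.584 to 1.08 in the barrier-on ones. Over pku70 the level was 0.0032 to 0.017 in the rnh201-RED libraries labelled pku70-d but 0.80 to 1.12 in the 4 rnh201-d libraries labelled Ku70:leu2, so the counts did not check that label. The rnh201-d, barrier-off Pol α library, labelled pku70+, had a level of 0.0023. In the inverted RTS1 pair the titles and the genotype labels name opposite polymerases, and the titles were followed. The labels name no separate cultures, so p-values here measure the spread between these libraries, with the 4 backgrounds in the place of replicates.

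The letters of 6 members are shown because they differ in the fork swing described below. They are the 3 with the highest and the 3 with the lowest swing among the members named by rule whose bins have the same coordinates in the reference. Each is the stretch of 200 bases richest in A+T within 1500 bp of the bin's centre, read 5′ to 3′ on the reference's forward strand from RefSeq, assembly ASM294v3. Capitals mark runs of at least 6 A or 6 T. Rank 413 is at the left end of chromosome 3, the first member, the one next after rank 250, lies on chromosome 2, and both are among the 5 highest swings of all members. Rank 346 was named because it lies beside the RTS1 insertion, and its swing was lower than theirs.
Rank 413, chr3:27792-27991: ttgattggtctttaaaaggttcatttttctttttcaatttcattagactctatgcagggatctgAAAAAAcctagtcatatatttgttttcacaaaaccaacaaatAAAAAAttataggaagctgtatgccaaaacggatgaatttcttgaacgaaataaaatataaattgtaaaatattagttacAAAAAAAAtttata
First member, chr2:54035-54234: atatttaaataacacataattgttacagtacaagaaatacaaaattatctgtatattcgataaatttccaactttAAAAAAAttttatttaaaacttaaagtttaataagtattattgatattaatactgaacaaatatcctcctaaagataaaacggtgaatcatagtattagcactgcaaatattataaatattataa
Rank 346, chr2:847400-847599: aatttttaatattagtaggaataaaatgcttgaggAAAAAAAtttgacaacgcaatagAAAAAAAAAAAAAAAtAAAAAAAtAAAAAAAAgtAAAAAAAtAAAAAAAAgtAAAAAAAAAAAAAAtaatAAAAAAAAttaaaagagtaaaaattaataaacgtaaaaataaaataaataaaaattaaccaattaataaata
The next 3 are among the 5 lowest swings of all members, and rank 619 lies inside the coding span of rpl1602, a gene for a protein of the large ribosomal subunit.
Rank 650, chr1:5064201-5064400: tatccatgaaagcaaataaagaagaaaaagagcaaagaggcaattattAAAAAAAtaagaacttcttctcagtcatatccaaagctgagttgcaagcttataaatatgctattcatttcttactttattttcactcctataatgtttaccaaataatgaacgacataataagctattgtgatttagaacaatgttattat
Rank 648, chr1:807724-807923: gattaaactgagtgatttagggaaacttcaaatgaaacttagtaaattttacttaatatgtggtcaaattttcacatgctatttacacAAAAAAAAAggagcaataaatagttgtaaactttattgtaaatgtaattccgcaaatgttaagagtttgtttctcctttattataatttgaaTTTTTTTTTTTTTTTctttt
Rank 619, chr1:4096579-4096778: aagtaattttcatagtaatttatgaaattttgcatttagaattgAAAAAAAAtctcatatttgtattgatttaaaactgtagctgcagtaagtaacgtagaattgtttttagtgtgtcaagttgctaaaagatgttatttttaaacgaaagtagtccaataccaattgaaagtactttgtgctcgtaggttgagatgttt
In these stretches A+T made up 75.5%, 81% and 89% of the bases at rank 413, the first member and rank 346, against 73%, 77% and 73% at ranks 650, 648 and 619. Rank 346 held 8 runs, the longest of 15 A, with A at 69% of the bases and T at 20%. Rank 648 held 2 runs, of which the longer had 15 T. The longest runs had 8 and 7 bases at rank 413 and the first member and 7 and 8 at ranks 650 and 619, so run length did not separate these members by swing.

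Inside the rank limits the barrier-off jump, on which the members were chosen, had a median of 0.141 (quartiles 0.072 and 0.221), against 0.531 at the strongest origins and −0.003 past rank 650. At the upper limit the jump was 0.3687 at rank 250 (chr2:2501101-2501400 in file coordinates, between the divergent genes pnc1 and csr103) and 0.3686 at the first member (chr2:52801-53100). At the lower limit it was 0.0225 at rank 650 (chr1:5064601-5064900) and 0.0204 at the next kept bin (chr1:4722301-4722600, inside SPAC1834.13). Neither limit was a gap in the values.

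The 4 barrier-on pairs, which the choice had not used, showed the same steps. Their jump, computed from the 4 pairs together, had a median of 0.148 over the members (quartiles 0.083 and 0.232, range 0.0073 to 0.391), against 0.544 at the strongest origins, −0.002 past rank 650 and −0.042 over all bins. In each of the 4 pairs taken alone the jump was above 0 at 390 of the 400 members, where 29.3% of all bins were, and at 22 of the 101 kept bins past rank 650. The 10 members at which a pair was at or below 0 all had rank 572 or later. The forward and reverse files, which come from different strands, gave medians of 0.146 and 0.150. Both jumps were above 0 at 397 members, a count not taken over all bins. Between the 4 pairs the SD of a member's jump had a median of 0.025 and reached 0.095. So for most members the jump exceeded the spread between pairs, and toward rank 650 it was of the same size.

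**Figure D1:**
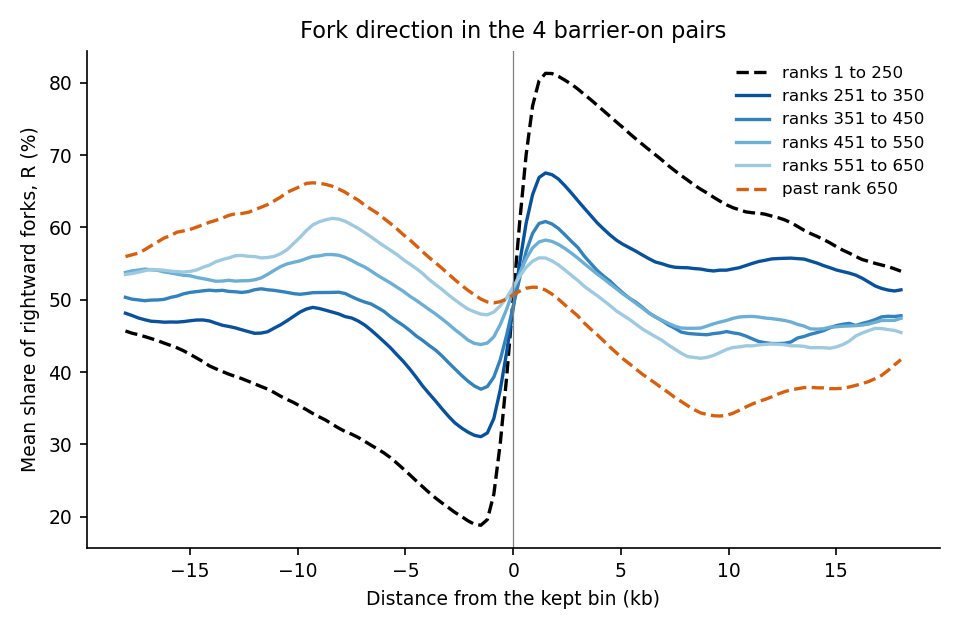
Mean share of rightward forks R (percent, vertical axis) in the 4 barrier-on RTS1-rRFB pairs against the distance from the kept bin (kb), for 4 bands of 100 members (blue), the strongest origins (black, dashed) and the kept bins past rank 650 (orange, dashed). Right of the bin the means reached 67.5% for the first band and 55.8% for the last, against 81.3% at the strongest origins.

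The profile of fork direction around the members showed a step confined to a few kb on a slope that ran the other way. In the first band the mean R fell to 31.1% at 1.5 kb left of the bin and reached 67.5% at 1.5 kb right of it. In the second band these were 37.6% and 60.8%, in the third 43.8% and 58.3%, and in the last 47.9% and 55.8% at 1.2 kb. Past rank 650 they were 49.6% and 51.7% at 0.9 kb.

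Only some of the members reversed the prevailing direction of the forks. R passed from below 50% on the left to above it on the right at 170 members, stayed below 50% on both sides at 116 and stayed above it on both at 114. Of the strongest origins 249 of 250 crossed, with median R of 21.6% on the left and 78.6% on the right, whereas the members' medians were 41.1% and 58.6%. The number that crossed was 82, 44, 29 and 15 of 100 from the first band to the last. At the last band most members were thus small rises within a stretch copied mainly in 1 direction.

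The same rule run on the barrier-on pairs alone kept a bin with a jump above 0 within 5 bins of 396 members. Of all bins, 18.6% lay that close to such a bin. At 272 members it was the same bin and at 384 it was at most 1 bin away. In the barrier-on ranking 383 members fell again between rank 250 and rank 650, 3 rose into the first 250 and 10 fell past 650. Those that rose were the first member, rank 254 (chr2:130801-131100, between mug14 and the phosphate transporter gene pho841) and rank 259 (chr1:3877201-3877500, beside pma1, which encodes the proton pump of the plasma membrane). Their barrier-on ranks were 245, 250 and 249, just inside the limit. The 4 members with no such bin were rank 390 (chr3:1083001-1083300, near the centromere), rank 504 (chr1:5565601-5565900, between ftm3 and ftm4), rank 537 (chr1:4706101-4706400, between pmo25 and klp3) and rank 556 (chr1:1926901-1927200, inside oma1). These 7 were named after their values were seen.

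**Figure D2:**
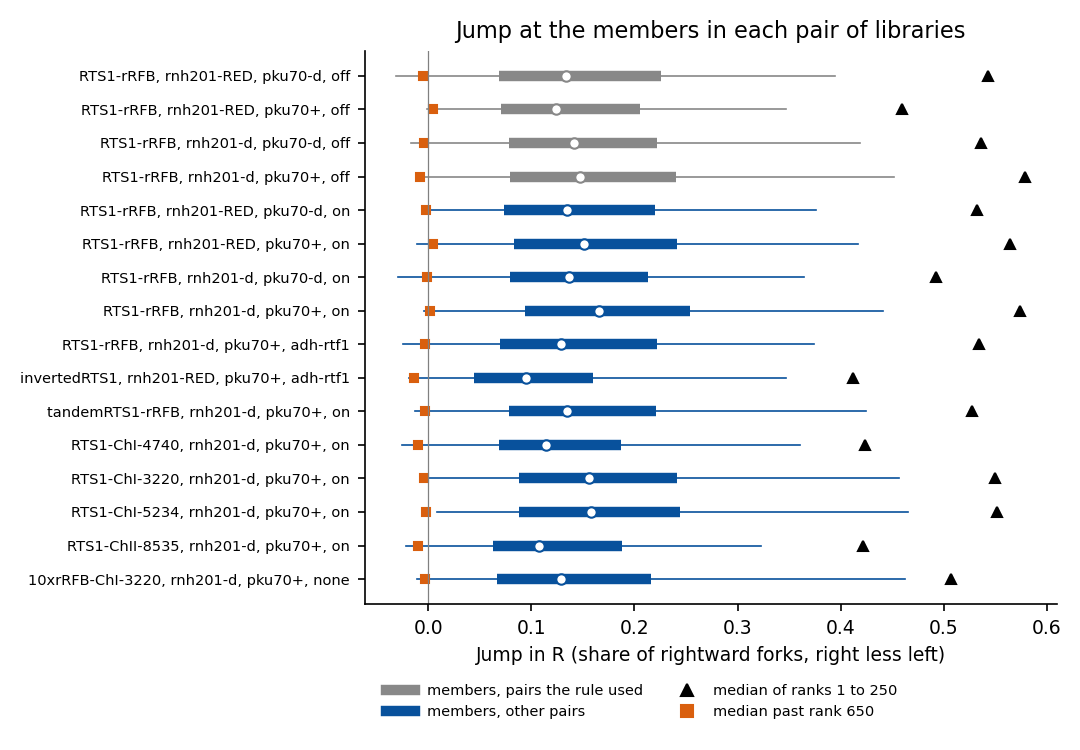
Jump in R at the members (horizontal axis) in each of the 16 pairs, with the range as a thin line, the quartiles as a thick bar and the median as a white point, in grey for the 4 pairs used in choosing the members. The members' medians lay between 0.094 and 0.166 in every pair, below those of the strongest origins (triangles) and above those past rank 650 (squares).

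Across the pairs that the choice had not used, the members' median jump ran from 0.094 to 0.166. The median jump was 0.134 and 0.151 in the barrier-on rnh201-RED pairs labelled pku70-d and pku70+, and 0.137 and 0.166 in the rnh201-d pairs. It was 0.129 with adh-rtf1, 0.134 with tandem RTS1 and 0.128 with the array on chromosome 1. With RTS1 at ChI-3220 and ChI-5234 it was 0.156 and 0.158, and at ChI-4740 and ChII-8535 it was 0.114 and 0.108. The lowest median, 0.094, came from the inverted RTS1 pair. In that pair the strongest origins were also lowest, at 0.412, where the other held-out pairs had 0.422 to 0.574. The paper's strain list gives cdc6-L591M for the Pol δ strain with inverted RTS1 and cdc6-L591G for its other Pol δ strains. The construct and this allele cannot be told apart here. In the pairs that the choice had not used, the members with a jump above 0 numbered between 385 of 399 (inverted RTS1) and 399 of 399 (RTS1 at ChI-5234), while of the 101 bins past rank 650 there were 23 to 54. Spearman's rho between the jumps of a held-out pair and those that chose the members was 0.89 to 0.97 over the members. That is a description, and the pairs share the bins and their base composition.

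Each library was then read alone. For a library, A was the count on the forward files in the 10 bins to the right plus the count on the reverse files in the 10 bins to the left, and B was the count on the forward files to the left plus that on the reverse files to the right. Around an origin log2(A/B) is above 0 for the leading-strand Pol ε and below 0 for the lagging-strand Pol δ and Pol α. The swing was the difference of this log ratio between Pol ε and Pol δ, tested with edgeR at every bin with p-values adjusted by Benjamini-Hochberg over the 41852 bins tested. Windows of neighbouring bins overlap and share counts.

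In the 8 barrier-on libraries the swing had a median of 1.03 on the log2 scale over the members (median SE 0.25, range −0.11 to 3.50), against 4.18 at the strongest origins, 0.04 past rank 650 and −0.27 over all bins. It passed the test, higher, at 245 of the 400 members, at all 250 strongest origins and at 1 of the 101 bins past rank 650. Of all bins 16.4% passed in that direction and 21.9% in the other, which held for 0 members. DESeq2 passed 302 members higher, and an unadjusted p under 0.05 in edgeR was met by 284 in either direction. The sign was above 0 at 396 members. For the counts by DESeq2, unadjusted p and sign, the share of all bins was not taken. By bands of 100 ranks, 97, 79, 49 and 20 passed, with median swings of 2.11, 1.31, 0.75 and 0.39, so the last band was close to the share of all bins.

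The Pol δ and Pol ε strains of a background leaned together, and the number of members that passed depended on whether the fit took this into account. When the pair was added to the edgeR fit as a block, a choice made after seeing the data, the median SE fell from 0.25 to 0.10 while the median swing was 1.04. The swing then passed, higher, at 370 members, where 24.9% of all bins did, and these held all 245 of the fit without the block. It passed at 250 of 250 strongest origins and 17 of 101 past rank 650. The bands had 100, 100, 95 and 75, so in this fit the last band stood above the share of all bins. In the other direction 49.9% of all bins passed and 0 members did. An unadjusted p under 0.05 in either direction was met by 373 members, a count not taken over all bins. Taken pair by pair, the difference of Pol ε less Pol δ was above 0 in all 4 pairs at 374 members (26.1% of all bins) and below 0 in all 4 at 1 member (52.2% of all bins).

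**Figure D3:**
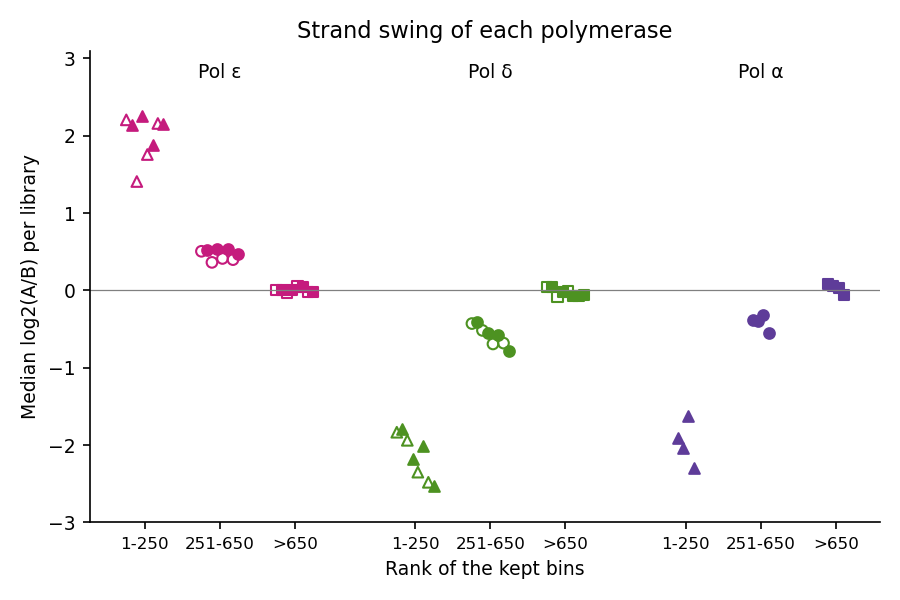
Median log2(A/B) of each library (vertical axis) for Pol ε, Pol δ and Pol α at the strongest origins (triangles), the members (circles) and the kept bins past rank 650 (squares). Filled symbols are barrier-on Pol δ and Pol ε libraries and all Pol α libraries, open symbols the barrier-off ones used in choosing the members. The barrier-on members lay between 0.47 and 0.54 for Pol ε and between −0.41 and −0.79 for Pol δ.

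Single barrier-on libraries had median log ratios over the members of 0.47 to 0.54 for Pol ε and −0.41 to −0.79 for Pol δ. Pol ε was above 0 in all 4 libraries at 243 members (25.6% of all bins), and Pol δ was below 0 in all 4 at 254 (22.9% of all bins). The Pol δ and Pol ε libraries of the 2 rnh201 alleles differed in how far members scattered. The SD over the members was 0.437 to 0.478 in the barrier-on rnh201-RED libraries of Pol δ and Pol ε, and 0.895 to 1.09 in the rnh201-d ones. In the Pol α libraries, barrier on and off, it was 0.428 and 0.436 in rnh201-RED and 0.424 and 0.551 in rnh201-d. The label smt0 went with rnh201-RED in the Pol δ and Pol ε pairs, and no such SD was taken over all bins. Pol ε was above 0 at 362 and 376 members in rnh201-RED and at 271 in each rnh201-d library, although the jumps, which set the 2 polymerases against each other, were alike. At rank 650, for example, the rnh201-d, pku70+ barrier-on pair had log ratios of −1.82 for Pol δ and −1.91 for Pol ε, so both polymerases leaned the same way. In rnh201-RED, pku70+ they were 0.053 and −0.18.

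Pol α, which starts the lagging strand, entered neither the choice nor the swing. With no second polymerase set against Pol α, base composition that differs between strands does not cancel in its log ratio. Over its 4 libraries log2(A/B) had a median of −0.41 at the members (median SE 0.09, range −1.89 to 0.48), against −1.92 at the strongest origins, 0.06 past rank 650 and 0.10 over all bins. It passed the edgeR test below 0 at 256 members, where 20.7% of all bins did, at all 250 strongest origins and at 12 of 101 past rank 650. The count was 206 to 298 with 1 library left out, and 298 without the rnh201-d, barrier-off library that lacked counts over pku70. The 4 bands had 97, 73, 57 and 29 members below 0 past the test, with medians of −0.86, −0.50, −0.28 and −0.06. Single libraries had medians of −0.32 to −0.54, and all 4 were below 0 at 268 members (24.0% of all bins).

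Pol α leaned the other way, above 0 past the test, at 5 members, a direction that 32.7% of all bins showed. They were rank 541 (chr1:3332101-3332400, between rrp9 and the protease gene sxa1, 0.44), rank 581 (chr2:160201-160500, between the convergent hexose transporter gene ght4 and frp1, 0.42), rank 612 (chr2:1188001-1188300, inside dni2, 0.48), rank 615 (chr1:4205401-4205700, between SPAC694.02 and SPAC694.03, 0.36) and rank 625 (chr3:1742701-1743000, between plb5 and nar1, 0.20). Their jumps in the barrier-on pairs were 0.072, 0.062, 0.037, 0.051 and 0.042. They were named after their values were seen.

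Both tests passed at 201 members, the Pol ε and Pol δ swing alone at 44, Pol α alone at 55 and neither at 100. With the pair as a block for the swing these were 252, 118, 4 and 26. Such joint shares were not taken over all bins. Over the 400 members Spearman's rho between the barrier-on jump and the Pol α log ratio was −0.77, a description over points that share position and base composition, taken from separate libraries. All 12 held-out libraries had the sign of an origin at 115 members (9.97% of all bins), at 239 of the strongest origins and at 0 of those past rank 650. The bands had 61, 37, 10 and 7 such members, so the third band was near the share of all bins and the last below it.

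Among the 5 members with the highest swing, 3 lay between coding genes. Rank 273 (chr3:1716901-1717200) lay between the convergent genes lto1 and gst1, a glutathione transferase gene. Its jumps in the barrier-on pairs were 0.349 (rnh201-RED, pku70-d), 0.388 (rnh201-RED, pku70+), 0.300 (rnh201-d, pku70-d) and 0.355 (rnh201-d, pku70+), and its swing was 2.86 (SE 0.23, edgeR adjusted p = 1.9e-05). The first member (chr2:52801-53100, between grt1 and SPBPB8B6.05C, 98.4 kb from the nearest strongest origin) had jumps of 0.375, 0.415, 0.335 and 0.418 in the same order and a swing of 2.82 (SE 0.30, edgeR adjusted p = 0.00013). Rank 260 (chr3:1687801-1688100) lay between the convergent genes tef3, which encodes a fungal translation elongation factor, and SPCC417.09C, with a tRNA gene within 1 kb. It had jumps of 0.361, 0.404, 0.307 and 0.347 and a swing of 2.81 (SE 0.45, edgeR adjusted p = 0.0013). At all 3 every pair was far above 0 and the pairs lay close together.

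The highest 2 swings were at the ends of chromosome 3, in repeated sequence. Rank 427 (chr3:2435401-2435700, beyond SPCC569.01C, the last coding gene) had a swing of 3.50 (SE 0.33, edgeR adjusted p = 5.8e-05) and rank 413 (chr3:26701-27000, left of SPCP20C8.01C, the first) had 3.30 (SE 0.29, edgeR adjusted p = 3.9e-05). Their jumps were moderate, at 0.159, 0.191, 0.159 and 0.174 for rank 427 and 0.165, 0.181, 0.160 and 0.194 for rank 413. Their counts were 2.52 and 2.30 times those of an average window. Of the 31-base words in the window of rank 413, 94.6% occurred also in that of rank 427, all on the opposite strand, so the 2 members are mirror copies whose reads cannot be told apart. With bins of extreme count set aside their swings were −0.37 and −0.088, and with 5 bins on either side 0.53 and 0.57, neither past the test.

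Repeated sequence touched other members too. In 58 of the 400 windows of 6300 bp more than 10% of the 31-base words occurred elsewhere in the reference, against 14 of 250 strongest origins (5.6%) and 3 of 101 past rank 650. Of these 58, 16 lay within 50 kb of a chromosome end and 13 within 20 kb of the long gene-free stretch taken as the centromere. The 2 members at ranks 408 and 412, inside the stretch on chromosome 3, had windows made wholly of repeated words and nearly the same swing, 1.27 and 1.28. Without the 58, the swing passed at 208 of 342 members (60.8%), with a median of 0.96. Over all 400 members the share that passed was 61.25%. The part that repeats play was not tested, and the identity of the members in repeats is uncertain.

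The 5 lowest swings missed the test with and without the pair as a block, but the pairs behind them were not alike. Rank 650 (chr1:5064601-5064900, between SPAC2E12.03C and the protease gene psp3) had −0.11 (SE 0.59) with jumps of 0.015, 0.0044, 0.069 and 0.070 in the order above. It was the member with Pol ε less Pol δ below 0 in all 4 pairs, at −0.11, −0.23, −0.0026 and −0.095, and with the pair as a block its SE was 0.097 (edgeR adjusted p = 0.33). Rank 648 (chr1:807601-807900, between pom2, which encodes a protein kinase, and urb2) had −0.09 (SE 0.40, with the block 0.10) with 0.024, 0.041, 0.060 and 0.027. Rank 609 (chr3:1265701-1266000, beside osh6, a gene of the oxysterol-binding family) had −0.07 (SE 0.16, with the block 0.090) with 0.027, 0.037, 0.025 and 0.053. At these 3 the jump was above 0 in all 4 barrier-on pairs although the swing was below 0.

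Rank 584 (chr3:1424401-1424700, between tti1, a partner of the kinases of the PIKK family, and SPCC622.14) had a swing of −0.07 (SE 0.22) with jumps of 0.075, 0.085, 0.034 and 0.023. Here Pol ε less Pol δ was 0.20 and 0.40 in the rnh201-RED pairs and −0.40 and −0.48 in the rnh201-d ones, so a mean near 0 stood for pairs that moved apart by allele. Rank 619 (chr1:4097401-4097700, inside rpl1602) had 0.01 (SE 0.31) with 0.045, 0.044, 0.020 and 0.030, and differences of 0.27 and 0.28 against −0.41 and −0.12. Both lay where R was high on either side, 78.6% and 84.3% at rank 584 and 81.8% and 85.4% at rank 619.

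Within 30 kb of the RTS1 insertion lay 1 member, rank 346 (chr2:847801-848100, between mfs3, a transporter gene, and cys11, which encodes cysteine synthase). With the barrier off its jumps were 0.228 (rnh201-RED, pku70-d), 0.209 (rnh201-RED, pku70+), 0.255 (rnh201-d, pku70-d) and 0.229 (rnh201-d, pku70+), values that helped to choose it. With the barrier on they were 0.171, 0.217, 0.223 and 0.231 in the same order. The 2 sets overlapped. R rose from 68.5% to 90.3% across it in the barrier-on pairs, and its swing was 1.55 (SE 0.17, edgeR adjusted p = 0.00015). In the pairs with RTS1 on chromosome 1 its jump was 0.307 (ChI-4740), 0.382 (ChI-3220) and 0.388 (ChI-5234), and with the array alone there 0.265. These were above every pair with a construct at ChII-8535, which ran from 0.105 (inverted RTS1) to 0.255. These pairs also differed in their rtf1 and native RTS1 labels, as given above. The difference between constructs at this member was not tested.

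Most members lay between genes. Coding spans held 73 members (18.2%), against 0.8% of the strongest origins, 38.6% of the bins past rank 650 and 60.3% of all bins on the reference. Divergent genes flanked 179 members (44.8%), against 61.2%, 28.7% and 14.5%, tandem genes 121 and convergent ones 24, and 3 lay beyond the outermost coding gene. With falling rank the members inside coding spans rose from 8 to 15, 24 and 26 per band of 100, while the divergent ones were 50, 41, 47 and 41. The swing passed at 120 of the 179 members between divergent genes, 70 of 121 tandem, 14 of 24 convergent and 39 of 73 in coding spans, or with the pair as a block at 169, 110, 23 and 66. The share of all bins that passed was not taken by class. The barrier-on jump had medians of 0.155, 0.159, 0.181 and 0.099 in these classes.

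A tRNA gene, itself a place where forks can pause, lay within 1 kb of 25 members (6.2%), against 11.6% of the strongest origins and 2.15% of all bins. A retrotransposon LTR lay that near to 26 (6.5%, all bins 3.41%). Within 50 kb of a chromosome end were 20 members (5.0%, strongest 1.6%, all bins 2.26%), of which the swing passed at 13 (19 with the block). Within 20 kb of a centromere were 15 (3.75%, strongest 2.0%, all bins 2.31%), of which it passed at 11 (15 with the block). The share of all bins that passed was not taken within these distances. Relative counts there ran from 0.742 to 6.11 near the ends and from 0.769 to 1.82 near the centromeres, against a median of 0.905 over all members. The member at 6.11 was rank 534 (chr2:4539601-4539900), beyond the subtelomeric helicase gene tlh2, with a swing of 0.25.

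**Figure D4:**
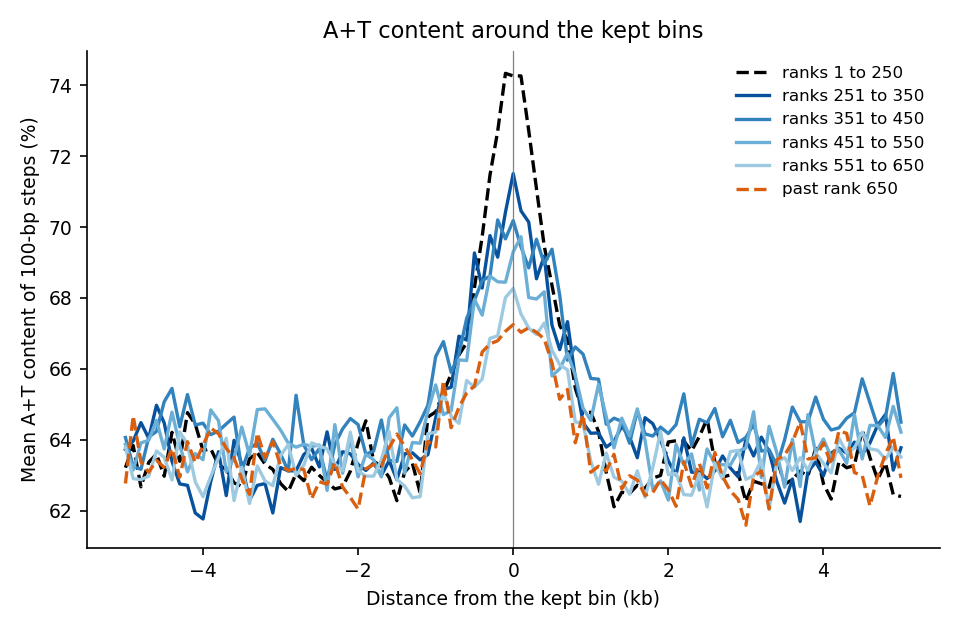
Mean A+T content in steps of 100 bp (percent, vertical axis, not from 0) against the distance from the kept bin (kb), for 4 bands of 100 members (blue), the strongest origins (black, dashed) and the kept bins past rank 650 (orange, dashed). The peaks fell from 71.5% in the first band to 68.3% in the last, and beyond 3 kb the means were 63.2% to 64.3%.

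A+T content peaked at the members although the choice had used fork direction alone. Over 5 bins (1500 bp) it had a median of 68.1% (SD 2.43, range 59.3% to 74.4%), against 70.5% at the strongest origins, 66.5% past rank 650 and 64.1% over all bins. The richest 200 bases within 1500 bp held 78.0% A+T at the median member, against 81.5%, 77% and 76%. Runs of at least 6 A or 6 T (AAAAAA or TTTTTT, which are each other's match on the opposite strand, with overlapping matches joined) numbered 12 at the median member within 1500 bp of the centre, against 14, 10 and 9. Such a run was present in every member's window and in 99.4% of all windows of that length, so presence alone marked nothing. Averaged by position, A+T peaked within 200 bp of the bin at 71.5%, 70.2%, 69.7% and 68.3% in the 4 bands, against 74.3% at the strongest origins and 67.2% past rank 650. Over the members Spearman's rho between the barrier-on jump and A+T over 5 bins was 0.37, a description in which intergenic position was not held fixed.

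By chromosome there were 175, 162 and 63 members, or 31.4, 35.7 and 25.7 per Mb. The barrier-on jump had medians of 0.128, 0.160 and 0.139, and the swing passed at 93, 118 and 34 of them, or 160, 155 and 55 with the pair as a block. The share of all bins that passed was not taken by chromosome. The nearest strongest origin was a median of 22.05 kb away (range 7.5 to 141.6 kb) and the nearest other member 14.85 kb (6.6 to 76.5 kb), where the rule allows nothing closer than 6 kb. The gap between the 2 strongest origins around a member was a median of 73.2 kb. From the first to the last band the distance to a strongest origin was 23.3, 23.7, 21.8 and 18.8 kb. Spearman's rho between the barrier-on jump and this distance was 0.11 and with relative counts 0.03 over the 400 members.

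Whether the label of pku70 or the allele of rnh201 moved the swing was tested in the 8 barrier-on libraries. For pku70, edgeR passed 0 members (0.0% of all bins), with 47 members at an unadjusted p under 0.05 (7.95% of all bins). DESeq2 passed 5 members. Over all bins DESeq2 passed 0.788% lower in pku70-d, and its share in the other direction was not taken. The difference, pku70-d less pku70+, was below 0 at 332 members with a median of −0.17 (median SE 0.17), against −0.67 at the strongest origins and 0.02 over all bins. As the counts did not check the Ku70:leu2 label, the 8 rnh201-RED libraries were also tested alone, with barrier as a term, and edgeR passed 0 members. The barrier-off libraries among these had been used in choosing the members. In the 8 barrier-on libraries with the pair as a block edgeR also passed 0, with 87 members at an unadjusted p under 0.05 (14% of all bins). By edgeR a difference of that size was thus not detectable at single members.

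**Figure D5:**
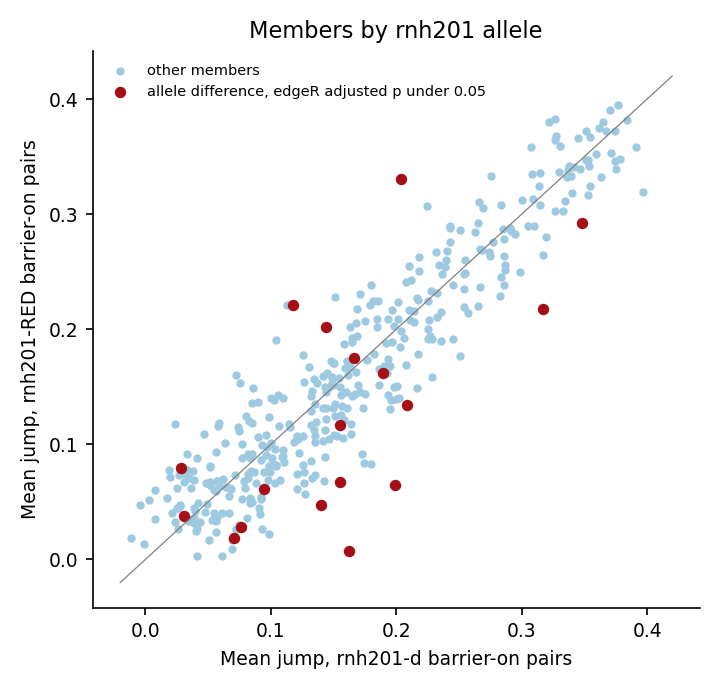
Mean jump in R of the 2 rnh201-RED barrier-on pairs (vertical axis) against that of the 2 rnh201-d barrier-on pairs (horizontal axis) for each of the 400 members, with the line of equal values. The 18 members with an allele difference in swing (dark red) had means of 0.0072 to 0.330 in rnh201-RED and 0.028 to 0.348 in rnh201-d.

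For the rnh201 allele, edgeR passed 18 members where 6.64% of all bins passed, 4 with the larger swing in rnh201-RED (4.07% of all bins) and 14 with the smaller (2.56%). The share of members, 4.5%, was below that of all bins. With the pair as a block 64 members passed, among them all of the 18, where 19.5% of all bins did, 21 with the larger swing in rnh201-RED (11.1% of all bins) and 43 with the smaller (8.42%). Each combination of allele and pku70 label had 1 pair, so the errors of these tests rest mostly on spread that edgeR shares over all bins. The label smt0 stood only in the rnh201-RED pairs of this test, and smt0x in the rnh201-d, Ku70:leu2 pair. The labels do not say whether smt0x is the same change. If it is not, smt0 and the allele cannot be told apart, and if it is, they still overlap in part. Rank 419 (chr2:2436601-2436900, between cmc1 and the cell adhesion gene map4) had jumps of 0.125 and 0.144 in rnh201-RED and 0.186 and 0.230 in rnh201-d, and a difference in swing of −1.77 (SE 0.17, edgeR adjusted p = 0.0075). Rank 636 (chr1:383101-383400, between gti1 and loc1) had 0.0028 and 0.012 against 0.201 and 0.123 (−1.09, SE 0.22, edgeR adjusted p = 0.022), with values near 0 in rnh201-RED. Rank 439 (chr2:1083001-1083300, between ipa1 and mas5, a gene for an Hsp40 chaperone) had 0.055 and 0.074 against 0.162 and 0.235 (−0.88, SE 0.18, edgeR adjusted p = 0.024). At all 3 the rnh201-d pairs were higher and the groups did not overlap.

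In the other direction, rank 299 (chr1:1156801-1157100, between esc1 and pso2, which encodes a nuclease of crosslink repair) had 0.320 and 0.340 in rnh201-RED against 0.170 and 0.239 in rnh201-d (0.86, SE 0.20, edgeR adjusted p = 0.037). The remaining 3 were rank 402 (chr1:1225501-1225800, inside rio1, a kinase gene of ribosome assembly), with means of 0.221 against 0.118, rank 414 (chr1:4231501-4231800, between hsp3105 and fip1), with 0.202 against 0.144, and rank 584, with 0.080 against 0.028. The 18 were called in these same libraries, so a separation of their jumps is no further support, and it was not counted over all bins. Among the 18 the jumps of the groups were apart with rnh201-RED higher at 4, apart with rnh201-d higher at 10, and overlapping at 4. All of these except ranks 427 and 584 were named after their values were seen. The Pol δ and Pol ε libraries of the 2 alleles also differed in the spread over members given above.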

How the data were processed

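The deposited values are counts of Pu-seq read ends per 300-bp bin and strand, not normalized, which the authors made by aligning reads with Bowtie2 and converting the alignments with a Perl script. The Bowtie2 version and the genome build are not given in the sources used here. File coordinates followed the construct genomes. Comparing count profiles put them at ASM294v3 on chromosome 1 (offsets of at most 60 bp), on chromosome 2 left of the insertion near spo9 (851808) and on chromosome 3 left of 117900. Elsewhere the offset was 3700 bp (chromosome 2 as far as 2114700), 2860 bp (beyond it) and −1760 bp (chromosome 3), and these shifts placed bins against RefSeq's 5113 coding genes and 171 tRNA genes. Bins are quoted in file coordinates and printed sequences in ASM294v3, taken only from the stretches without a shift, which hold 211 members.

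Samples were grouped by their GEO titles and genotypes. The members, the named sites and the lists were chosen with earlier results of these data known. Sites were named by rule as the 5 highest and 5 lowest swings, the sites on either side of each rank limit and any member within 30 kb of RTS1. Others are said to have been named after their values were seen. The count tests used edgeR 4.0.16 in R 4.3.3 (quasi-likelihood, A and B of each library as 2 columns with library as a block, library totals as sizes, at least 10 counts per column, Benjamini-Hochberg at 0.05 over all bins), and were checked on simulated data. Bins were handled with Python 3.11.15, numpy 2.4.6, pandas 2.3.3 and scipy 1.17.1, and plots with matplotlib 3.10.9. Alternatives were windows of 5 or 15 bins, DESeq2 1.42.0, no count filter, no smoothing, scaling by the median bin, bins over 4 or under 0.25 times the median bin set aside, other match tolerances, and each pair or library left out. After the data were seen, the pair was also fitted as a block (A by pair), since the labels give each background 1 Pol δ and 1 Pol ε strain. Over the members the deviations of both from their polymerase's mean correlated at 0.89 to 0.92 within the 4 barrier-on pairs. In log ratios of single libraries 0.5 was added to each count. Intervals and errors cover the spread between libraries, which edgeR shares in part over bins, and reads without molecular identifiers are not independent molecules.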

Additional observations from a re-analysis of the deposited data

Results flagged for a closer look

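The swing differed between the 2 rnh201 alleles, by a test of the difference itself (edgeR, adjusted over all bins), at 18 members, and at 64 with the pair as a block, of which these 18 were part. Among the sites named by rule this held for rank 427, at the right end of chromosome 3, where the swing was lower in rnh201-RED (a log2 difference of −1.0, SE 0.24, edgeR adjusted p = 0.039), although the jumps of the 2 alleles overlapped (0.159 and 0.191 against 0.159 and 0.174) and its window is nearly all repeated sequence. It also held for rank 584, between tti1 and SPCC622.14, where it was higher in rnh201-RED by 0.73 (SE 0.15, edgeR adjusted p = 0.023), with jumps of 0.075 and 0.085 against 0.034 and 0.023. Its swing over the 8 libraries was −0.07 and missed the test. The share of members with such a difference, 4.5%, was below the 6.64% of all bins. The labels smt0 and rnh201-RED went together in this test and cannot be told apart, unless smt0x in the rnh201-d, Ku70:leu2 pair is the same change as smt0. No value was called outlying in the 13 groups of 4 to 10 values that were examined, and groups so small can hide an odd library. Some libraries stood apart in the rtf1, pku70 and Pol α values given above.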

How the results depend on the processing

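Counts of members kept their direction and stayed within 1.5 times of the reported value in all alternatives except the pair as a block for the swing (190 with 5 bins on either side to 302 with DESeq2, which shared all 245), Pol α (225 to 301 over other settings), jumps above 0 in all 4 barrier-on pairs (345 with 15 bins to 394 with 5) and bins found again (394 with a tolerance of 2 bins, 396 with 10). Leaving out 1 pair or library gave 197 to 210, 206 to 298 and 393 to 396 members for the swing, Pol α and the bins found again, and a median jump of 0.143 to 0.150. The Pol α count was highest, 298, without the rnh201-d, barrier-off library. The median jump of 0.148 became 0.121 with 15 bins, 0.166 with no smoothing and 0.106 with extreme bins set aside, and median A+T was 64.8% over 21 bins. Except for the block and, in the direction lower in pku70-d only, the DESeq2 test of pku70, shares of all bins were not counted under these alternatives. The set of 16 libraries includes the barrier-off ones used in choosing the members. The rnh201 count of 18 became 79 with all 16 libraries (16 shared), 34 with DESeq2 (18 shared), 8 with 5 bins and 64 with the pair as a replicate block (18 shared). The swing count of 245 became 370 with that block (245 shared). The pku70 count of 0 stayed 0 with it and became 1 with 16 libraries and 5 with DESeq2. Their cause was not tested, except that the block takes out what the Pol δ and Pol ε strains of a background share.

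Among the members named by rule, signs turned at ranks 413, 427, 584, 609, 619, 648 and 650, and single swings of other members were not followed through the alternatives. With the pair as a block none of these signs turned. With extreme bins set aside rank 413 became −0.088 and rank 427 −0.37, and with 5 bins they were 0.57 and 0.53, no longer past the test. Rank 584 became 0.61 (5 bins), 0.0333 (DESeq2), 0.40 (extreme bins set aside) and −0.23 to 0.066 with a pair left out (above 0 when the pair left out was rnh201-d). Rank 609 became 0.11 (5 bins) and 0.0274 (DESeq2), rank 648 became 0.24, 0.0176 and 0.40 (5 bins, DESeq2, extreme bins set aside) and rank 650 became 0.30 and 0.54 (5 bins, extreme bins set aside). Rank 619 became −0.36 (15 bins) and −0.088 to 0.15 with a pair left out (below 0 when it was rnh201-RED).

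Alternatives chosen after seeing the data were the pair as a block, the pku70 test in rnh201-RED alone (0 members) and leaving out the 58 repeated windows (208 members for the swing, 217 for Pol α, 332 for all 4 jumps and 17 for rnh201). Depth was not varied, and the lowest count in a barrier-on window of a member was 238.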
